A study of Danio rerio with 6 samples.

Results

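The genes described here are the neighbours of myd88 on zebrafish chromosome 24. They are all listed genes whose midpoint lies within 10 Mb of the midpoint of myd88, which runs from 20188914 to 20192996 on danRer11, without myd88 itself and without 9 neighbours that had been singled out in earlier work on these data (pip4k2aa, acaa1, acad11, cst14a.1, cst14a.2, tnfrsf11a, ackr4b, pdk3a and SGK3). The position of a gene and not its expression put it in the set, but the 9 genes taken out had all passed the criteria used below, so counts of changed neighbours stand after this removal. This left 223 of the 17835 genes of the series, of which 213 were protein coding and 10 non-coding. On the lower-coordinate side of myd88, called below here, lay 85 of them, and 138 lay above it.

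MyD88 is the adaptor that links most Toll-like receptors and the receptors of the interleukin-1 family to the kinases that activate NF-kB, and in the heart it is known for its role in the inflammatory response to damage. A mutant allele is inherited together with the DNA on both sides of it, because meiotic recombination seldom separates sequences that lie close together. Siblings that are sorted by their genotype at 1 gene are therefore also sorted, to a degree that falls with distance, by the parental chromosome from which the neighbouring genes come. Loss of MyD88 and sequence differences on the linked part of chromosome 24 cannot be told apart in this design.

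RNA came from EGFP+ endocardial cells, which form the inner lining of the heart, sorted from cryoinjured ventricles at 96 hours post cryoinjury (hpci). The 3 myd88+/+ and the 3 myd88-/- libraries each came from a pool of 4 ventricles of adult siblings of both sexes in the AB strain. All fish of both genotypes carried the enhancer trap ET(krt4:EGFP)sqet33-1A, which marks the endocardium, and the mutants were homozygous for the myd88 hu3568 allele, so that every cell type lacked the wild-type gene. Genotypes of the flanking sequence were not analysed here.

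The deposited values were normalized read counts rounded to whole numbers, and they summed to between 11136966 and 11847536 per library. All 8 endocardial and endothelial markers examined were listed, with a summed value of 57890 to 67542 in the wild type and 49387 to 84854 in the mutants. Markers of epicardium and fibroblasts (72491 to 95495 against 72262 to 90485) and of cardiomyocytes (5 of 6 listed, 10322 to 16874 against 11003 to 15956) were also present, whereas macrophage markers summed to 957 to 2397 against 508 to 1153, and of the neutrophil markers mpx, lyz and mmp13a.1 were not listed. Markers of smooth muscle and pericytes summed to 5713 to 9984 in the wild type against 3118 to 11684 in the mutants. Those of erythrocytes summed to 25 to 448 against 231 to 629. No tested marker passed the criteria. The listed neutrophil marker, cpa5, was too low to be tested, so this says nothing on neutrophils. The part of these cell types in the results below was not tested. For myd88 the 3 wild-type libraries read 1305, 1149 and 1070 and the 3 mutants 817, 575 and 849 (log2 difference -0.67 ± 0.17, SE, limma adjusted p = 0.15), so that its transcript was still detected in the mutants. The library myd88-/- replicate 3 stood apart on the upper side, where 252 genes exceeded all 5 other libraries by over 2-fold, while 13 to 37 genes did so in any other library. On the lower side it had the fewest genes over 2-fold under all others, 40 against 68 to 156. Because of the upper side, most counts of genes in the text that follows are also given without this library.

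To ask how far the neighbours of myd88 differed between the genotypes, genes with a mean above 5 were tested with limma on log2(value + 1), and 201 of the 223 neighbours entered this test. The criteria were an adjusted p under 0.05 together with a difference of more than 1.5-fold, up or down. The criteria were met by 7 neighbours (3.48%), against 115 of the 16383 genes tested in the whole series (0.702%). Of the 7, the 4 that rose in myd88-/- cells were shisa2b, slc51a, si:ch211-69l10.4 and apoob, where 0.140% of all genes tested rose. The 3 that fell were tm9sf1, si:ch211-161h7.5 and si:rp71-1f1.4, against a share of 0.562% among all genes tested. With the 9 genes that had been taken out, 16 of 210 (7.62%) met the criteria. In these bulk libraries fewer cells of a type and less RNA per cell cannot be told apart.

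Looser measures were counted as well. The unadjusted limma p was under 0.05 in 62 neighbours (30.8%), against 13.2% of all genes tested. In 74 neighbours (36.8%) all 3 libraries of one genotype lay above all 3 of the other, against 18.1% of all genes tested, and these are called non-overlapping below. Among these 74 genes myd88-/- libraries had the higher values in 40 and the lower values in 34. The median log2 fold change of the 201 neighbours was 0.07, with 109 higher and 92 lower. Its median absolute log2 fold change was 0.32, against 0.23 for all genes tested, and it exceeded 1 in 26 neighbours (12.9%), against 4.18%. The spread within genotypes was close to that of other genes, with a median SD of 0.269 on the log2 scale against 0.265. Without myd88-/- replicate 3, 9 neighbours met the criteria, including all 7, against 255 of all genes tested (1.57%), and 107 (53.2%) did not overlap, against 33.4% of all genes tested. Leaving out a library can add genes to the non-overlapping ones but cannot remove any.

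**Figure D1:**
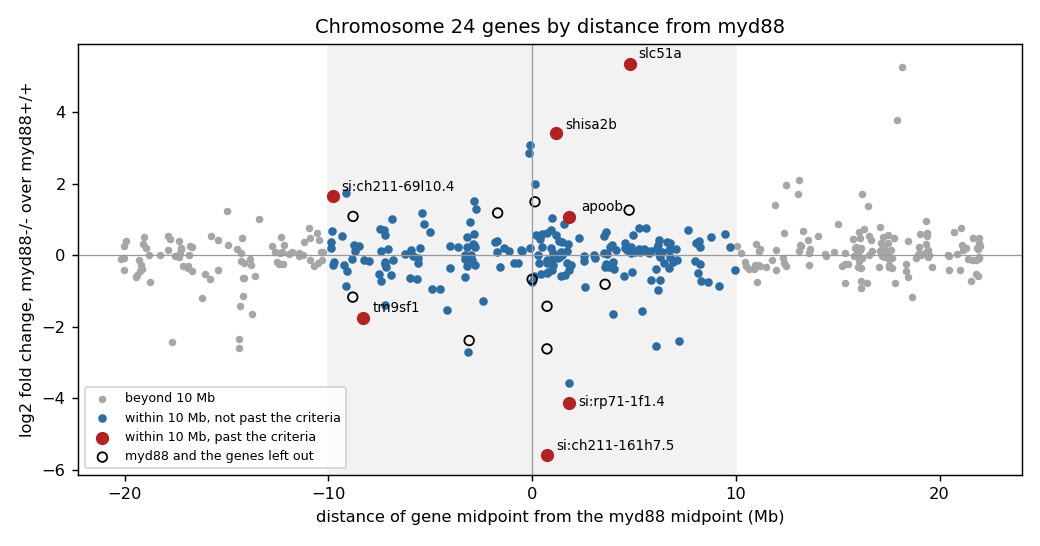
Log2 fold change (myd88-/- over myd88+/+, y axis) of each tested gene of chromosome 24 against the distance of its midpoint from that of myd88 in Mb (x axis). The 7 genes past the criteria are red and named, the other genes within 10 Mb blue, those beyond grey, and myd88 and the genes taken out are open circles. Values within 10 Mb run from -5.59 to 5.37 and lie on both sides of 0.

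Difference by distance from myd88 was described in 4 bins, without a test because neighbouring genes are not replicates. Within 1 Mb of myd88, 1 of 29 tested genes met the criteria and 41.4% did not overlap between the genotypes. From 1 to 2.5 Mb these values were 3 of 31 and 48.4%, from 2.5 to 5 Mb 1 of 52 and 32.7%, and from 5 to 10 Mb 2 of 89 and 33.7%. The median absolute log2 fold change was 0.47, 0.37, 0.29 and 0.30 in the same order. Without myd88-/- replicate 3 the shares of non-overlapping genes were 55.2%, 51.6%, 55.8% and 51.7%, with no order by distance, against 33.0% on the other chromosomes. The Spearman correlation between absolute log2 fold change and distance was 0.01 over the 201 neighbours and -0.14 over the 437 tested genes of chromosome 24 other than myd88, a description across genes that share the same 6 libraries and are not independent.

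When the genes taken out were counted too, 4 of 32, 4 of 32, 4 of 55 and 4 of 91 genes met the criteria in the 4 bins. Farther along the same chromosome the criteria were met by 2 of 81 genes between 10 and 15 Mb and by 4 of 146 between 15 and 22 Mb. In these bins 33.3% and 25.3% of the genes did not overlap, and counts without myd88-/- replicate 3 were not made for them. The share on all other chromosomes was 93 of 15945 genes past the criteria (0.583%) and 17.6% not overlapping. Both sides of myd88 were alike in the second measure, with 30 of 80 genes below (37.5%) and 44 of 121 above (36.4%) not overlapping, and 2 and 5 genes past the criteria. Without myd88-/- replicate 3 the shares were 57.5% below and 50.4% above. Whether the sides or bins differ from each other was not tested.

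**Figure D2:**
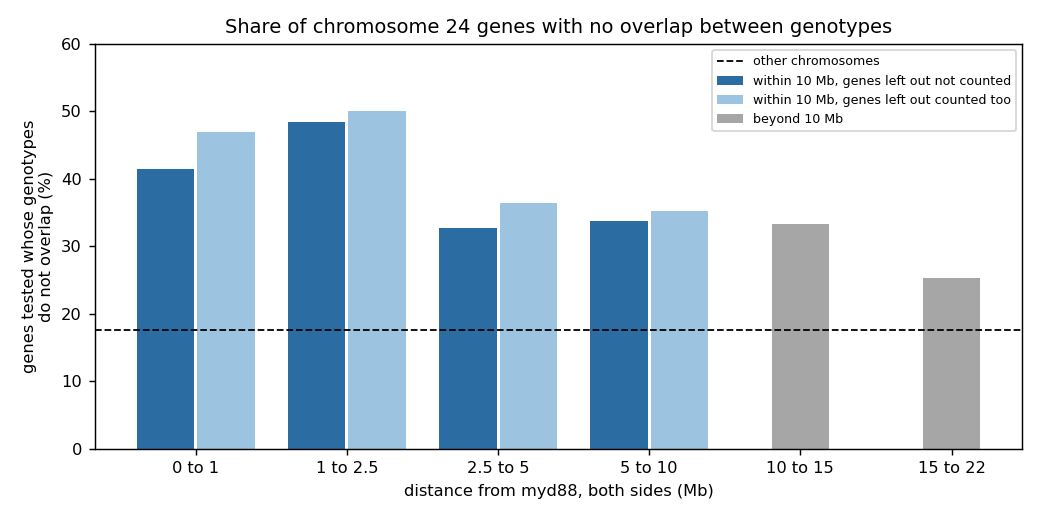
Share of tested genes (y axis, percent) whose genotypes did not overlap, by distance from myd88 in Mb on both sides (x axis), without (dark bars) and with (light bars) the genes taken out, and beyond 10 Mb (grey bars). The dark bars stand at 41.4%, 48.4%, 32.7% and 33.7%, and the dashed line marks the 17.6% of the other chromosomes. All shares are those with myd88-/- replicate 3 included.

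The 7 genes past the criteria are described from the one nearest to myd88 outward. si:ch211-161h7.5 (ENSDARG00000093044, chromosome 24, 20909922 to 20915050) encodes an uncharacterised protein and lies 0.722 Mb above myd88. It had 132, 92 and 89 in the wild type and 4, 0 and 1 in the mutants. All 3 mutant libraries were thus close to 0, and the log2 fold change was -5.59 ± 0.58 (SE, limma adjusted p = 0.00328), the largest in size of all 16383 genes tested. With a pseudocount of 0.5 or 5 in place of 1 it was -6.10 or -4.06. Its neighbour in name and position, si:ch211-161h7.4, had 117, 197 and 228 against 297, 272 and 241, a log2 difference of 0.63 that did not pass the test (adjusted p = 0.32).

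shisa2b (ENSDARG00000088232, 21346796 to 21361501) lies 1.16 Mb above myd88. It belongs to the Shisa family, whose founding member in the frog holds Wnt and FGF receptors back in the endoplasmic reticulum. The wild-type libraries had 8, 7 and 14, the mutant libraries 127, 118 and 89. The lowest mutant library was well above the highest wild-type library, and the rise was 3.44 ± 0.33 on the log2 scale (SE, limma adjusted p = 0.00271).

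The next genes past the criteria lie side by side. apoob (ENSDARG00000026444, 21978230 to 21989406), 1.79 Mb above myd88, encodes a subunit of the MICOS complex, which shapes the inner mitochondrial membrane. It had values of 161, 126 and 139 against 298, 254 and 356, a rise of 1.08 ± 0.18 (SE, limma adjusted p = 0.0368) that did not pass without the intensity trend (adjusted p = 0.135). Its span overlaps that of sat1b, a spermidine and spermine acetyltransferase gene on the other strand, whose values of 370, 341 and 394 against 208, 328 and 311 gave a log2 difference of -0.41 (adjusted p = 0.40). The authors excluded reads that overlapped more than 1 gene. Whether reads were counted by strand is not given in the sources used here. Reads from the overlap could thus have been left out or assigned by strand.

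si:rp71-1f1.4 (ENSDARG00000092476, 21990964 to 21991770) begins beyond the end of apoob, 1.80 Mb above myd88, and is annotated as an arylamine N-acetyltransferase, an enzyme class that acetylates aromatic amines. Its values were 30, 34 and 28 against 0, 5 and 0, and it fell by 4.12 ± 0.73 on the log2 scale (SE, limma adjusted p = 0.0486). With a pseudocount of 0.5 or 5 the log2 fold change was -4.80 or -2.5, and the call was lost with the former (adjusted p = 0.0659), with equal library totals (0.0571) and without the intensity trend (0.134). A second gene with the same annotation, si:rp71-1f1.6, 1.82 Mb above myd88, had 18, 8 and 9 against 0 in all 3 mutant libraries. Against a floor of 3 reads per library it was at least 3.89-fold lower, and its adjusted p of 0.0547 missed the threshold. Reads that map to more than 1 place had been removed, so values of such paired genes are uncertain. Another pair of related genes nearby encodes acyl-CoA thioesterases. Of these acot9.2 had 19, 16 and 13 against 43, 33 and 28 (log2 difference 1.06), and acot9.1 had 637, 688 and 745 against 927, 871 and 764 (0.31).

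slc51a (ENSDARG00000045306, 24961899 to 24983047) lies 4.78 Mb above myd88 and encodes the alpha subunit of the organic solute transporter, which exports bile acids and steroids from cells. Counts of 5, 1 and 0 in the wild type stood against 100, 63 and 129 in the mutants, a rise of 5.37 ± 0.64 on the log2 scale (SE, limma adjusted p = 0.0073), the second largest difference in size of all genes tested. With a pseudocount of 0.5 or 5 it was 5.87 or 3.88, and without the intensity trend the call was lost (adjusted p = 0.0657). Of the 10 genes of the series with the largest difference in size, 3 were neighbours of myd88 by this definition. Of the 20 largest 6 were, while neighbours made up 201 of the 16383 genes tested. Chromosome 24 beyond 10 Mb held 2 of the 10 and 2 of the 20, and other chromosomes 5 and 12. This order depends on the pseudocount because most of these genes are low in one genotype.

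The last 2 genes lie far below myd88. tm9sf1 (ENSDARG00000022970, 11887885 to 11908115), 8.29 Mb away, encodes a membrane protein of the nonaspanin family, found in endosomes and the Golgi. Its values were 244, 278 and 241 against 71, 83 and 72, with little spread in either genotype, and it fell by 1.74 ± 0.17 on the log2 scale (SE, limma adjusted p = 0.00271). si:ch211-69l10.4 (ENSDARG00000098036, 10397865 to 10406797), which encodes an uncharacterised protein 9.79 Mb away, had 48, 51 and 59 against 150, 201 and 158, a rise of 1.66 ± 0.20 (SE, limma adjusted p = 0.00794).

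How far these calls rest on single libraries was examined by leaving out each of the 6 libraries in turn. shisa2b, tm9sf1 and si:ch211-161h7.5 met the criteria in 6 of 6 such fits, si:ch211-69l10.4 in 5, slc51a in 4, si:rp71-1f1.4 in 2 and apoob in 1. The direction was the same in each of these fits for all 7 genes. Without myd88+/+ replicate 2 only the first 3 were past the criteria.

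**Figure D3:**
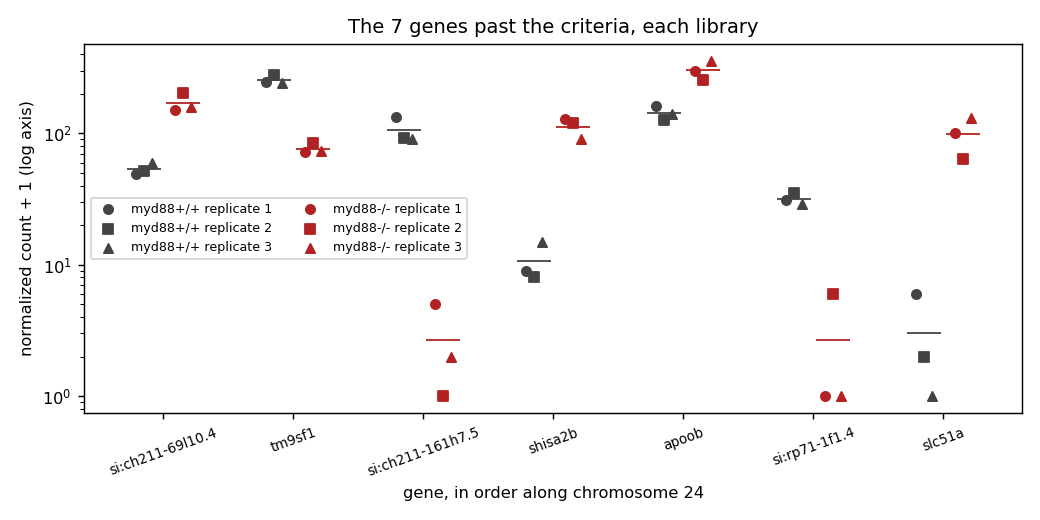
Normalized count + 1 (y axis, log scale) of the 7 genes past the criteria (x axis, in order along the chromosome) in each myd88+/+ (grey) and myd88-/- (red) library, with replicates by marker shape and horizontal lines at the means. For each gene the genotypes do not overlap, as with 8, 7 and 14 against 127, 118 and 89 for shisa2b.

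The tested genes nearest to myd88, not counting those taken out, were examined on each side. Among those taken out, acaa1 lies 0.138 Mb above myd88, nearer than dlec1 on the same side, and had passed the criteria. cry-dash encodes a cryptochrome of the DASH type, a relative of light-dependent DNA repair enzymes. Its midpoint lies 0.0103 Mb above that of myd88, and it had 68, 54 and 71 against 32, 35 and 49 (log2 difference -0.73 ± 0.26, SE). map3k22, a kinase gene, had 114, 132 and 152 against 93, 66 and 109 (-0.59 ± 0.23). dlec1, named for its deletion in lung and oesophageal cancer, had 4, 2 and 3 against 17, 18 and 10 (1.99 ± 0.50), and plcd1a, a phospholipase C gene, had 490, 342 and 551 against 775, 599 and 644 (0.56 ± 0.19). These 4 did not overlap between the genotypes, which leaving out myd88-/- replicate 3 cannot change. Of all genes tested 18.1% did not overlap, and 33.4% without that library. None of the 4 passed the test, with limma adjusted p from 0.143 to 0.331. The next gene above, ctdspla, which encodes a phosphatase, differed little, with 1217, 1259 and 1173 against 1184, 1352 and 1161 (0.02 ± 0.12).

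On the lower side the nearest protein-coding gene, the stress kinase gene oxsr1b, had 316, 333 and 399 against 422, 437 and 351 (log2 difference 0.21 ± 0.15, SE). Beside it lies a group of non-coding genes. CR381686.3 had 1, 0 and 1 against 10, 12 and 16 (3.08 ± 0.61, limma adjusted p = 0.0671) and CR381686.1 had 2, 0 and 0 against 13, 6 and 11 (2.87 ± 0.72, adjusted p = 0.144). CR381686.3 overlaps CR381686.4 on the other strand and CR381686.2 on the same strand, both too low to be tested, with 4, 7 and 4 against 3, 0 and 2 and with 1, 0 and 0 against 3, 6 and 0. All these values are close to the limit of a few reads, and CR381686.3 and CR381686.1 exceeded a mean of 5 only through their mutant values. Among the nearest tested genes on this side only CR381686.3 and CR381686.1 did not overlap between the genotypes, against 18.1% of all genes tested. csrnp1b, a nuclear protein gene, and slco5a1a, an organic anion transporter gene, overlapped with log2 differences of 0.12 and 0.15. Without myd88-/- replicate 3, oxsr1b and slco5a1a did not overlap either, against 33.4% of all genes tested.

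A stretch between 1 and 2 Mb above myd88 held 3 of the 7 genes past the criteria among its 23 tested genes, against 0.702% of all genes tested, and was picked out after its values had been seen. In it 12 genes (52.2%) did not overlap, against 18.1% of all genes tested, and 13 without myd88-/- replicate 3, against 33.4%. Beside shisa2b, apoob, si:rp71-1f1.4, si:rp71-1f1.6, sat1b and the acot9 pair it held pan3, a subunit gene of the deadenylase that shortens poly(A) tails, with 196, 261 and 194 against 467, 338 and 399 (log2 difference 0.89 ± 0.18, SE, limma adjusted p = 0.076). The others were rpl21 (-0.57), rnf6 (0.42), tagln3b (-0.20) and dap (-0.27). Higher and lower genes were interspersed along it. flt1, a VEGF receptor gene that is expressed in endothelium, lies beside pan3 and had 3986, 3730 and 3144 against 2516, 1876 and 3210 (-0.54 ± 0.20, adjusted p = 0.285), with overlap through myd88-/- replicate 3.

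**Figure D4:**
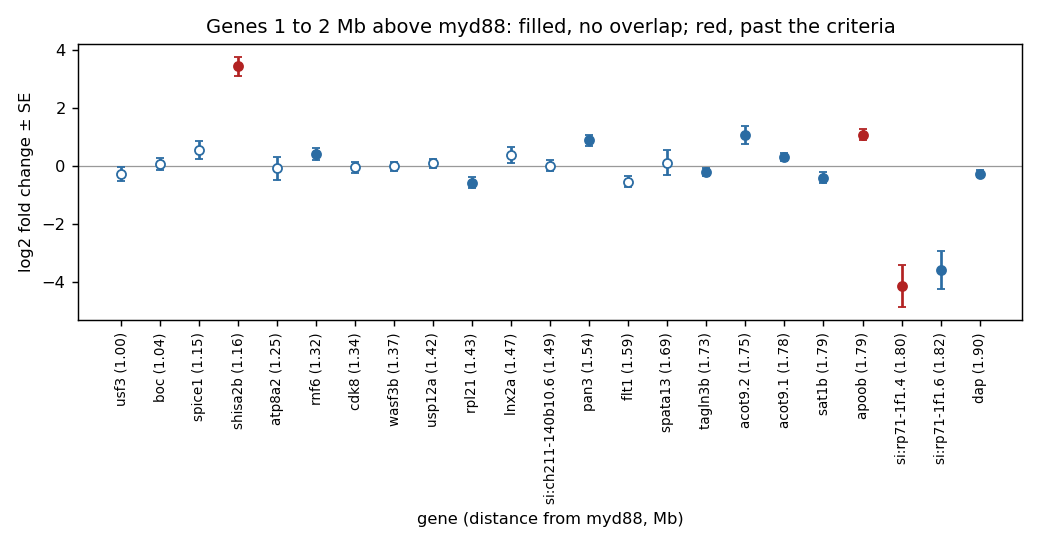
Log2 fold change ± SE (y axis) of the 23 tested genes between 1 and 2 Mb above myd88, in order of distance (x axis, with the distance in Mb). Filled points mark genes without overlap between genotypes and red those past the criteria, with shisa2b at 3.44 and si:rp71-1f1.4 at -4.12 as the extremes.

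Among further neighbours with a mean of at least 50, those with the smallest p did not pass the test. arhgap29a, a GTPase-activating protein gene 8.31 Mb above myd88, came closest in p, with 1832, 2001 and 1865 against 1338, 1008 and 1121 (log2 difference -0.73 ± 0.14, SE, limma adjusted p = 0.0552). CR753886.1, annotated as a GTPase of the IMAP family, which is known from lymphocytes, had 334, 298 and 266 against 153, 188 and 150 (-0.87 ± 0.17, adjusted p = 0.059). The zinc finger gene si:dkey-226l10.6 had 76, 77 and 85 against 25, 38 and 16 (-1.64 ± 0.32, adjusted p = 0.0671). hs6st1b, which adds sulfate to heparan sulfate chains, had 627, 600 and 741 against 1085, 1231 and 899 (0.70 ± 0.15, adjusted p = 0.0984). Of these 4, hs6st1b alone met the criteria without myd88-/- replicate 3.

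The remaining genes of this kind had limma adjusted p from 0.138 to 0.177. rdh10a, whose enzyme makes retinal for retinoic acid synthesis, had 1371, 1407 and 1104 against 923, 889 and 834 (log2 difference -0.55). armc1 (-0.58), ngdn (-0.67) and the importin gene kpna1 (-0.47) were also lower in each mutant library than in each wild-type library. dcaf11 (0.57), which encodes a substrate receptor of a cullin ligase, nktr (0.60) and klhl24b (0.77) were higher in each.

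The 10 neighbours with the highest mean all overlapped between the genotypes, while 18.1% of all genes tested did not. Without myd88-/- replicate 3, pdia4, flt1, sh3kbp1 and tram1 among them did not overlap, against 33.4% of all genes tested. eif5a, a translation factor gene, had 9838, 9489 and 9479 against 8909, 9650 and 9274 (log2 difference -0.05 ± 0.12, SE). csrnp1b followed, then the chaperonin gene cct5 (0.01), pdia4, a disulfide isomerase gene (0.28), flt1, the RNA-binding protein gene stau2 (0.18), the adaptor gene sh3kbp1 (0.13), the acetyltransferase gene naa50 (-0.11), the translocon gene tram1 (0.16) and tfr1b, a transferrin receptor gene (0.13).

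At the ends of the window the values were as follows. The 2 genes just inside on the lower side carry the same symbol, otulina, and overlap on the same strand, and had log2 differences of 0.20 (ENSDARG00000045422) and 0.36 (ENSDARG00000073931). Just inside on the upper side were frrs1b (0.23) and plppr5b (-0.40). Just outside were cdv3 (-0.14) and vps41 (0.11) below and snx7 (0.27) and dpyda.1 (0.05) above. None of these 8 passed the test.

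The 223 genes were also grouped by function from symbol and description, and 201 of them had a test. Counts of non-overlapping genes by class stand against the 18.1% of all genes tested, and, where given without myd88-/- replicate 3, against 33.4%. They are descriptions of small classes, and no class was tested against another. Metabolism and mitochondria was the largest class, with 13 of 27 tested genes not overlapping (48.1%, against 18.1%, and 17 without myd88-/- replicate 3), 5 higher and 8 lower, and 2 past the criteria, against 0.702% of all genes tested. Besides those already named, ptgdsb.1, a prostaglandin D synthase gene, had 22, 5 and 3 against 0, 0 and 1 (log2 difference -2.70, adjusted p = 0.22), and CR405710.1, annotated as a fat storage-inducing protein, had 26, 13 and 14 against 3, 5 and 12 (-1.39). The mitochondrial fission regulator gene mtfr1 (0.34) was on the higher side, and prkag2a, a subunit gene of the energy-sensing kinase AMPK, on the lower side (-0.50). The overlapping members ran from -0.72 to 1.04. They were cox19 and cox4i1l of cytochrome c oxidase, pck2 of gluconeogenesis, TIMM21, fam162a and ccdc58 of mitochondria, thtpa, mtrr, cmbl, gramd1c, hgd, pex2 of peroxisomes, and the esterase genes NCEH1 and nceh1b.1. pcyt1ba, of phosphatidylcholine synthesis, was too low to test.

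In RNA processing and translation 9 of 18 genes did not overlap, against 18.1% of all genes tested, and 10 without myd88-/- replicate 3. Lower in each mutant library were the ribosomal protein genes rpl21, with 870, 728 and 627 against 397, 571 and 533, and rpl22l1, with 282, 249 and 229 against 122, 188 and 170 (log2 difference -0.68). The same held for ngdn, the poly(A)-binding protein gene pabpn1 (-0.21) and eif2s3, a subunit gene of the initiation factor that brings the first tRNA (-0.29). Higher were pan3, nktr, larp4b (0.18) and rnpc3 of the minor spliceosome (0.52). Those that overlapped ran from -0.23 to 0.18 and were prpf4bb, stau2, gars1, qtrt2, si:ch211-140b10.6, rrs1, eif1axb, ythdf3 and eif5a. No gene of the class met the criteria.

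Of 21 tested transcription and chromatin genes, 4 did not overlap (19.0%, close to the 18.1% of all genes tested, and 7 without myd88-/- replicate 3). They were ezh2, which encodes the methyltransferase of Polycomb repressive complex 2, with 170, 165 and 190 against 324, 288 and 198 (log2 difference 0.60), si:ch211-230g15.5, annotated as a Polyhomeotic-like protein (0.44), the arginine methyltransferase gene prmt6, with 102, 104 and 91 against 59, 67 and 39 (-0.87), and si:dkey-226l10.6. The overlapping members ran from -0.53 to 0.66 and included myca, gli3 of Hedgehog signalling, the Polycomb gene bmi1a, eya1, ncoa2, zfx, mllt10, csrnp1b, zbtb47b, usf3, zfhx4, mybl1, mynn, skilb, msl2b, the cohesin gene stag1b and zmynd11. skilb and si:ch211-230g15.5 overlap on opposite strands. hnf4g, not tested, had 0 in all wild-type libraries and 4, 2 and 6 in the mutants.

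Among ubiquitin, proteasome and signalosome genes 7 of 16 did not overlap (43.8%, against 18.1% of all genes tested, and 9 without myd88-/- replicate 3). Higher were dcaf11, klhl24b, the substrate adaptor gene klhl15 with 325, 271 and 236 against 459, 388 and 334 (log2 difference 0.50), the scaffold gene cul1b (0.23) and the ligase gene rnf6. Lower were fbxo15 (-0.94, with values of at most 14) and fbxo45 (-0.24). Overlap was found in psme1, eloca, flj11011l, commd3, usp12a, lnx2a, cops5, trim55b and cops9, from -0.38 to 0.37, and klhl40b was not tested. dcaf11 and eloca overlap on opposite strands.

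In protein folding, secretion and membrane traffic 8 of 21 genes (38.1%) did not overlap, against 18.1% of all genes tested, and 14 without myd88-/- replicate 3. Besides tm9sf1 and kpna1, the calcium-binding protein gene pdcd6 had 3288, 2831 and 2175 against 1828, 1908 and 2007 (log2 difference -0.51) and relch was lower (-0.32). pign of GPI anchor synthesis (0.56), sh3glb1a, an endophilin gene (0.41), zdhhc23b (0.22) and arfgef1 (0.20) were higher in each mutant library. The other 13 ran from -0.27 to 0.47 and were asap1b, si:dkey-12l12.1, ipo4, tram1, cct5, pdia4, sec61g, hhatlb, sec22c, naa50, zdhhc20b, nup58 and mbtps2. dnajc5b was not tested.

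Of 18 tested genes for kinases, phosphatases and signalling proteins, 3 did not overlap (16.7%, against the 18.1% of all genes tested, and 8 without myd88-/- replicate 3). Beside map3k22 and plcd1a this was socs6a, a gene of the suppressor of cytokine signalling family, with 62, 52 and 57 against 30, 26 and 32 (log2 difference -0.94 ± 0.24, SE, limma adjusted p = 0.154). The overlapping members, from -1.57 to 0.21, were lztfl1, oxsr1b, ctdspla, cdk8, si:dkey-7n6.2, rps6ka3b, pde7a, mtmr6, amer2, cnksr2a, camk2n2, sh3kbp1, map3k15, tnikb and pld1b, and tnk2a was not tested. The low end was cnksr2a, with 14, 16 and 46 against 2, 8 and 16, which overlaps smpx on the other strand.

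In the cytoskeleton, junctions and GTPase regulators 4 of 10 genes did not overlap, against 18.1% of all genes tested. The same 4 did not overlap without myd88-/- replicate 3, against 33.4% of all genes tested. These were arhgap29a and tagln3b on the lower side and, on the higher side, fam49bb, with 161, 144 and 219 against 264, 239 and 246 (log2 difference 0.53), and phldb2b, with 426, 392 and 471 against 778, 554 and 601 (0.57). The overlapping members lay between -0.01 and 0.20 and were jph1a, prex2, wasf3b, spata13, smpx and the claudin gene cldn11b. ctnnd2a was not tested.

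Among 8 tested receptors and guidance proteins shisa2b was the only one without overlap (18.1% of all genes tested), and there were 3 without myd88-/- replicate 3. neto1l, sema5a, cntnap2a, boc, flt1, vipr2 and plppr5b overlapped, from -1.52 to 0.24 on the log2 scale, and tmtopsb, an opsin gene with 4, 0 and 0 against 13, 8 and 1, was not tested. Of 8 tested transporters, slc51a and ankha, which encodes an exporter of pyrophosphate, did not overlap, and 4 did not without myd88-/- replicate 3. ankha had 194, 211 and 180 against 261, 516 and 226 (0.68). xkr9, slco5a1a, atp6v1ab, atp8a2, tfr1b and frrs1b ran from -0.63 to 0.23, and abca4a was not tested.

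Extracellular matrix and secreted proteins held the widest spread within genotypes, a median SD of 1.03 on the log2 scale against 0.269 for all neighbours. hs6st1b and and1, an actinodin gene of the fin rays with 13, 8 and 8 against 1, 2 and 0 (log2 difference -2.52, adjusted p = 0.16), did not overlap, and the other 7 tested genes did. Without myd88-/- replicate 3, 5 of the 9 did not overlap. pi15a, a peptidase inhibitor gene, had 46, 17 and 7 against 9, 17 and 441, crispld1a had 27, 9 and 17 against 18, 18 and 84, and SBSPON had 1, 7 and 2 against 4, 3 and 19. In all 3, as in pck2 with 282, 155 and 188 against 185, 272 and 732, myd88-/- replicate 3 was more than 2-fold above each other library. sulf1, a heparan sulfate sulfatase gene, phex, fndc3bb and col11a1a overlapped too, and cpa6 was not tested.

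Chemokines and other immune genes were few and mostly low. 6 of the 12 were tested, and CR753886.1 and si:dkey-25o1.7, with 13, 6 and 12 against 0, 2 and 2 (log2 difference -2.38), did not overlap, whereas si:dkey-225k4.1, the chemokine gene ccl20b, tnfsf10, a death ligand gene, and nrros, which holds latent TGF-beta, ran from -0.68 to 0.25. The chemokine genes ccl34b.1, ccl34b.3, ccl34b.4, ccl34b.8 and cxcl32b.1 and the gene si:ch73-264p11.1 were not tested, with no value above 13. ccl34b.1 had 0, 0 and 3 against 8, 6 and 8 and ccl34b.3 had 3, 0 and 1 against 8, 4 and 6. They lie side by side in a family of related genes, and how much of their signal was removed with multimapping reads was not tested. Without myd88-/- replicate 3, 4 of the 6 tested genes did not overlap.

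In DNA replication, repair and cell division cry-dash was the only one of 8 genes without overlap, with and without myd88-/- replicate 3. fen1, terf1, rttn, spice1, MCMDC2, pola1 and cip2a ran from -0.32 to 0.65 on the log2 scale. Of the 2 cell death genes, dap was lower in each mutant library and bcl2a, the BCL2 gene, had 410, 365 and 293 against 293, 331 and 324 (-0.16).

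Among the 8 tested non-coding genes 5 did not overlap, against 18.1% of all genes tested, and 6 without myd88-/- replicate 3. The 5 were higher in myd88-/- libraries. Besides the CR381686 pair these were AL840641.2 with 11, 3 and 1 against 13, 14 and 16 (log2 difference 1.74), CR376737.1 with 23, 21 and 16 against 35, 43 and 39 (0.94) and BX005392.3 with 11, 10 and 7 against 33, 35 and 19 (1.51). AL840641.2 is listed as an rRNA, and since ribosomal reads had been removed its values are uncertain. CR376737.1 and CR381686.1 are listed as pseudogenes. CT573344.1, BX005392.2 and BX005392.1 overlapped. CR381686.1 and CR381686.3 exceeded the mean of 5 only through their mutant values. CR381686.4, which was lower in each mutant library, was too low to be tested. The direction of this class thus depends in part on which genes were tested. No non-coding gene met the criteria, and AL840641.2 overlaps asap1b on the same strand.

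The last class, other or uncharacterised protein-coding genes, had 12 of 21 tested genes without overlap (57.1%, against 18.1% of all genes tested, and 14 without myd88-/- replicate 3). Not yet described are zfand1 (log2 difference -0.44), pxdc1b (0.30), ccdc191 (0.72), zgc:112982 (0.28), dip2ca (-0.17), si:ch73-383g2.1 (0.60) and si:dkey-118j18.2, with 1705, 1687 and 1580 against 1240, 1302 and 1335 (-0.36). si:ch211-196f5.9, si:dkey-73n8.3, C24H8orf34, CR450812.1, si:dkey-40h20.1, zc2hc1a, ENSDARG00000090346 and lrrc31 overlapped, from -0.97 to 0.75. CR450812.1 overlaps 2 of the genes taken out and fam162a on the other strand, and ccdc58 and kpna1 on the same strand. Reads that overlapped more than 1 gene were excluded, so the values of these genes are uncertain. si:ch211-196f5.2, zgc:112332, CR352265.3, ropn1l and CT955984.1 were not tested. In all, 22 neighbours were not tested, none with a value above 13, and 5 of these did not overlap. The share among all untested genes of the series is not given here, so this count cannot be read as high or low.

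**Figure D5:**
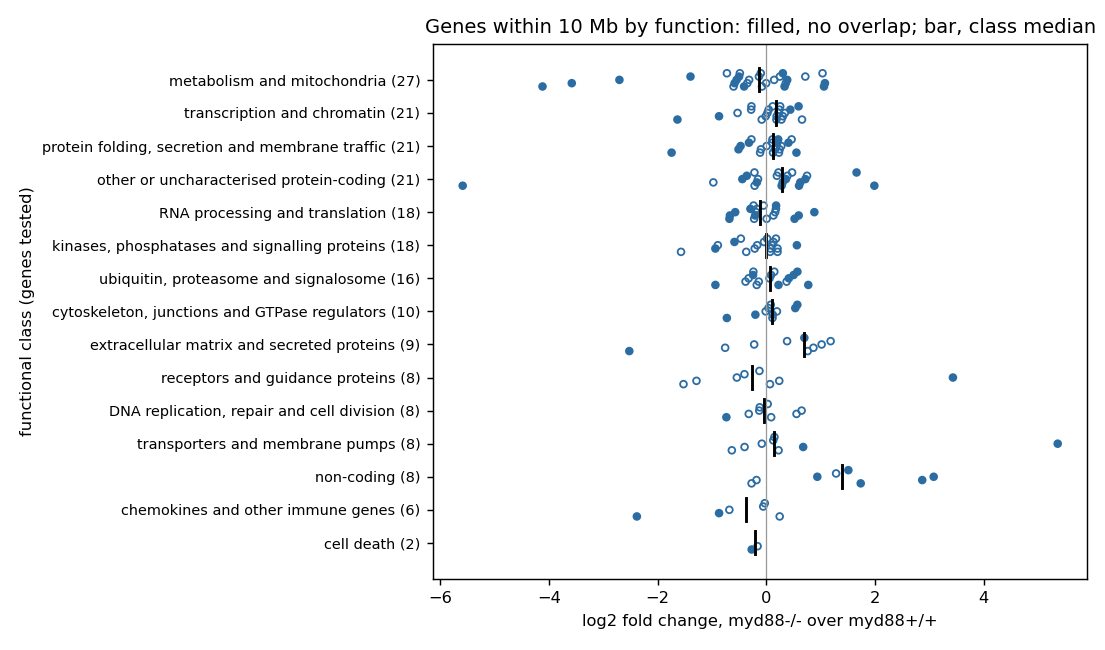
Log2 fold change (x axis) of the 201 tested genes by functional class (y axis, with the number tested). Filled points are genes without overlap between genotypes, open points overlap, and black bars are class medians, with that of chemokines and other immune genes at -0.37 as the lowest and that of the non-coding genes as the highest. Of the non-coding genes, CR381686.1 and CR381686.3 exceeded a mean of 5 only through their mutant values.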

How the data were processed

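RNA-seq of sorted endocardial cells gave 6 libraries, grouped by genotype from the sample labels. The authors trimmed reads with Trimmomatic 0.39, aligned them with STAR 2.7.10a to danRer11, removed duplicates and multimapping, ribosomal and mitochondrial reads with Picard 3.0.0, counted reads on exons of 1 gene with featureCounts 2.0.4 and normalized with DESeq2 1.36.0. Duplicate and multimapping removal lowers very abundant and near-identical genes. The deposited values are a score, that is, counts scaled by the authors with 1 size factor per library and then rounded. Each myd88+/+ library had whole numbers skipped by every gene, such as 20 in myd88+/+ replicate 1. No such gap was found in the myd88-/- libraries, which were taken to be scaled alike. Since the values are not raw counts, limma 3.58.1 in R 4.3.3 (lmFit, then eBayes with trend) was fitted on log2(value + 1), with genotype as the only term. The fit covered the 16383 genes with a mean above 5 over all libraries, so a gene that is low in either genotype can enter through the other. P-values were Benjamini-Hochberg adjusted over all of them. The calculation was tested on simulated data. Fold changes on this scale understate those of low genes. A value near 10 was taken to be close to 10 reads.

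Gene positions, symbols and identifiers are those of the deposited table. 216 of the 223 members were found in a separate name table, 151 with the same symbol. Genes named singly were those past the criteria and up to 12 further genes with a mean of at least 50 and the smallest p. The 5 tested members nearest myd88 on each side were added, as were the 2 at each limit of the window on both sides. The 10 members with the highest mean were named too. The other members are named within their class, except 1 that is not reported here. si:rp71-1f1.6, the acot9 genes, socs6a, ezh2 and the class members given with values were chosen after their values were seen. Members, lists and classes were chosen with earlier results of these data known. Tried alternatives were the pseudocount, the filter, library scaling, the variance model, a test against a 1.5-fold change, a replicate block, leaving out each library, the window and the genes taken out. Counts of non-overlap without myd88-/- replicate 3 were added after seeing the data. Promoter sequences were not used here.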

Additional observations from a re-analysis of the deposited data

How the results depend on the processing

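The 7 neighbours past the criteria became 4 in a test against a 1.5-fold change, 9 with robust eBayes, and 16 when the genes taken out were counted. They ranged from 3 (without myd88+/+ replicate 2) to 9 (without myd88-/- replicate 3) when 1 library was left out, while the count over all genes ranged from 28 to 255 in these fits. The 4 that rose became 2 in the test against a 1.5-fold change and ranged from 1 to 5 with 1 library left out. The 3 that fell became 5 with robust eBayes, which added arhgap29a and CR753886.1, and ranged from 2 to 4 with 1 library left out. The 62 neighbours with an unadjusted p under 0.05 became 16 in the test against a 1.5-fold change and ranged from 42 to 67 with 1 library left out. Under the other settings, which were no intensity trend, equal library totals, no filter, a mean of at least 50, a pseudocount of 0.5 or 5, a window of 5 Mb and genes without any overlapping gene, 5 to 8 neighbours were past the criteria, but not always the same ones. Without the trend 4 of the 6 were among the 7, with slc51a, apoob and si:rp71-1f1.4 lost, and with a mean of at least 50, which leaves slc51a and si:rp71-1f1.4 out of the test, 5 of the 6 were. No named gene past the criteria turned in direction. Over all genes 25 were called without the trend, 24 against a 1.5-fold change and 45 with the replicate block, in place of 115. With robust eBayes 140 were called, without a filter 131, and 118 with a mean of at least 50. A pseudocount of 0.5 or 5 gave 115 or 119, and equal library totals gave 99. For the split by direction and the unadjusted p, counts over all genes under these settings are not given here. Those counts of neighbours cannot be read alone. With the replicate block 4 neighbours were past the criteria, 2 of them higher. Whether the replicate numbers pair the libraries is not known. The residuals of same-numbered libraries correlated at -0.12, 0.13 and -0.14. They were not compared with those of differently numbered libraries and cannot exclude a shared batch. The block thus removes degrees of freedom for a pairing that is not known. The causes of these changes were not tested. At these depths values under about 10 reads, as in the chemokine and non-coding genes, limit what can be detected.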
